A study of Arabidopsis thaliana x Arabidopsis arenosa with 4 samples.

Results

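The Arabidopsis fruit is built from valves, which form its walls, a replum between them, and narrow valve margins along which the ripe fruit opens. A small network of transcription factors places these tissues: *IND* and *ALC* act at the margin, *FIL*, *YAB3* and *AS1* in the valves, *RPL* and *BP* in the replum, and *SPT* and *CRC* in the carpel margins and style. The 10 genes described here are these regulators together with *YAB5*, picked by gene code and not by a rule on their values. Earlier results of these data were known when the set was chosen. The set is 10 genes beside 16610 genes listed in any cross.

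The RNA came from siliques, young fruits with the seeds inside, 4 days after pollination. The 3 F1 hybrids came from hand-emasculated crosses between tetraploid Arabidopsis thaliana of the ecotype C24, Ler or Col-0 and tetraploid Arabidopsis arenosa, and are called the C24, Ler and Col cross. The fourth group was Allo733, an F8 allotetraploid whose labelled A. thaliana ecotype is Ler. Each group held 1 library, whole siliques of unstated number were used, and A. arenosa, named last in each label, is read as the pollen parent, a direction not spelled out there. Per its title the study is about genes expressed from the father in hybrid seeds that abort, and the deposited values allow both parental alleles of a gene to be set side by side within each cross. Where 3 values of a gene follow each other, they stand for C24, Ler and Col, in that order.

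Of the 10 regulators, 7 were listed in all crosses and 3 in none. *IND* (AT4G00120), *CRC* (AT1G69180) and *YAB5* (AT2G26580) were the genes without a listed value. *IND* encodes the basic helix-loop-helix (bHLH) factor that specifies the margin, *CRC* a YABBY factor of carpels and nectaries, and *YAB5* a YABBY factor of lateral organs. The lowest total in any table was 2.00 RPKM (reads per kilobase of transcript, scaled to the mapped reads of the library), so nothing is said here about lower levels of these genes. All 4 markers of carpel and fruit wall (*FUL*, *AG*, *SHP1*, *SHP2*) were listed in every cross, at 25.9 to 42.6 RPKM, and 0 of 6 endosperm and 0 of 6 embryo markers were listed in any. Of 6 seed coat markers, 4 were listed in every cross, summing to 1179, 816 and 1652 RPKM, most of it from *TT4*. The seed coat markers *BAN* and *TT12* were listed in none. The petal and stamen gene *AP3* was also listed, at 33.1, 33.0 and 31.8 RPKM, although flowers were emasculated before pollination. The other petal and stamen marker, *PI*, was listed in the Ler cross only, at 4.93 RPKM. Read depth is unknown, and the 3 crosses are the only repeated measure, so every SD below holds ecotype and library together.

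Members of this set include close relatives. The letters below show where the coding sequences of each related pair are most alike over 60 bases. Reads from such a stretch would be the hardest to assign to 1 gene. They are RefSeq TAIR10.1 sequences found by gene code, on the coding strand, with bases shared by the pair in capitals. The first pair, *FIL* on chromosome 2 and *YAB3* on chromosome 4, lies in the conserved YABBY region.
FIL: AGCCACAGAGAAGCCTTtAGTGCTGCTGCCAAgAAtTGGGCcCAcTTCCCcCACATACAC
YAB3: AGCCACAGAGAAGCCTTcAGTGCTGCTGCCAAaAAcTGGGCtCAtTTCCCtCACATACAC
The second pair, *ALC* on chromosome 5 and *SPT* on chromosome 4, lies in the bHLH region.
ALC: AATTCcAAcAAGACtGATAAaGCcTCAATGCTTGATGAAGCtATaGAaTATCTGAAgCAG
SPT: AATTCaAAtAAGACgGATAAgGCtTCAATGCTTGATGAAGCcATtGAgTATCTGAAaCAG
*FIL* and *YAB3* shared 54 of the 60 bases and *ALC* and *SPT* 51, and all 6 and all 9 differing bases were the third base of a codon. The longest run without a difference was 17 bases in each pair over the whole coding sequence, so any longer stretch differs between the genes. Whether reads were counted for the wrong gene was not tested. The sources used here do not say how the authors treated reads that match more than 1 gene.

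The first question was how strongly each regulator was expressed. *BP*, *AS1* and *RPL* had the highest means and *YAB3* the lowest. RPKM is scaled by transcript length, so these levels can be compared between genes. *BP* (AT4G08150), a KNOX homeobox gene of the replum and stem, had total levels of 28.7, 38.3 and 31.3 RPKM (32.8 ± 4.97, SD, n = 3 crosses). *AS1* (AT2G37630), a MYB gene that keeps *BP* out of leaves and valves, had 29.4, 28.9 and 34.7 RPKM (31.04 ± 3.20). *RPL* (AT5G02030), a BELL homeobox gene that keeps margin genes out of the replum, had 23.4, 30.3 and 22.9 RPKM (25.5 ± 4.13). These 3 genes stood above 70.0% to 82.5% of the genes listed in each cross, and their neighbouring ranges overlapped.

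*ALC* (AT5G67110), a bHLH gene needed for the separation layer of the margin, was the steadiest, with 24.7, 21.9 and 23.5 RPKM (23.4 ± 1.40, SD, n = 3 crosses). Its range overlapped that of *RPL* and lay above that of *FIL*. *FIL* (AT2G45190), a YABBY gene of the valves, had 6.39, 13.9 and 13.98 RPKM (11.4 ± 4.36), and so was lowest in the C24 cross. *SPT* (AT4G36930), a bHLH gene of carpel margins and a relative of *ALC*, had 6.35, 7.91 and 4.27 RPKM (6.18 ± 1.83), which overlapped the range of *FIL*. *YAB3* (AT4G00180), which acts with *FIL*, had 2.04, 2.53 and 2.28 RPKM (2.28 ± 0.247). Its range lay below that of *SPT* and close to the lowest listed totals of 2.00 RPKM.

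**Figure D1:**
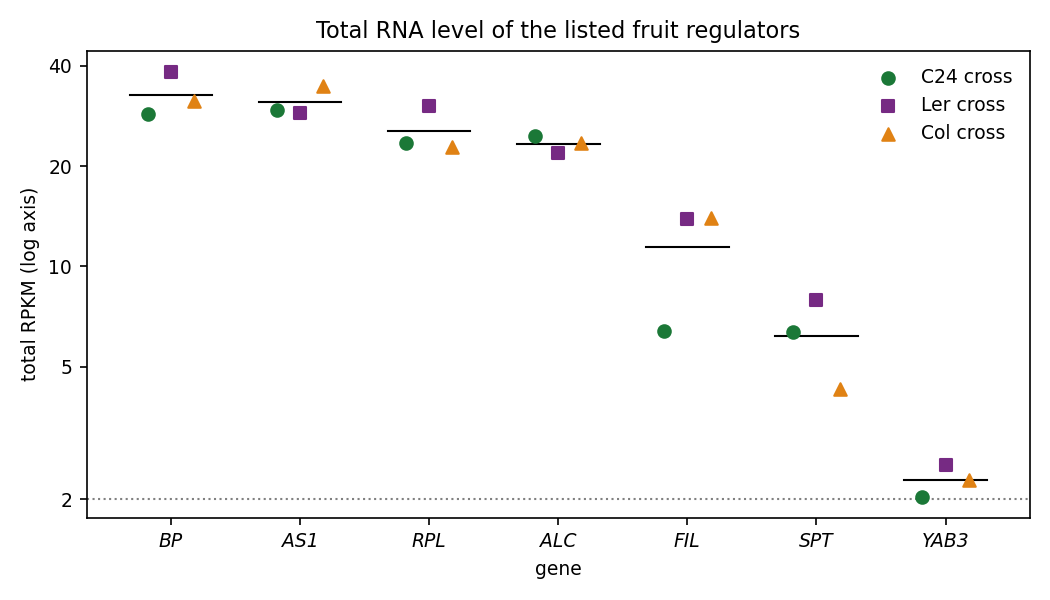
Total RPKM (log axis) of the 7 listed regulators, with 1 point per cross, a black line at the mean of the crosses and a dotted line at 2 RPKM, the lowest listed total. The ranges of *BP*, *AS1*, *RPL* and *ALC* overlap from neighbour to neighbour between 21.9 and 38.3 RPKM, *FIL* is lower in the C24 cross (6.39) than in the others, and *YAB3* stays between 2.04 and 2.53.

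The next question was whether a cross stood apart in total expression. Of the 7 listed regulators, 0 were at least 2-fold above or below both other crosses after the crosses were centred on their median gene. Across all 14687 genes listed in every cross, this rule called 2.1%, 1.13% and 0.606% above and 1.09%, 1.39% and 0.926% below in the C24, Ler and Col cross. With 1 library per cross there is no test of these differences. *FIL* came closest, lower in the C24 cross than in the nearer of the other crosses by a difference of -0.95 on the log2 scale, and without centring, at -1.11, it was past 2-fold. In the Col cross *SPT* differed from the nearer of the other crosses by -0.66. On the scale of RPKM plus 0.1, the highest cross over the lowest had a median of 1.32 for the 7 regulators and 1.42 for all 14660 genes with allele values. In whole siliques, fewer cells of a type and less RNA per cell cannot be told apart.

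The low *FIL* value of the C24 cross stood beside higher RNA levels of secondary wall genes in that cross. All 6 markers of secondary wall cells were listed in every cross and summed to 929.7 RPKM in the C24 cross, against 127.5 for Ler and 137.0 for Col. *NST1*, a NAC gene that switches on wall thickening in the fruit and the stem, had a total of 35.1, 12.5 and 9.13 RPKM, highest in the same cross. *NGA1*, a gene of style development, had the opposite pattern, with 5.46, 12.6 and 23.7 RPKM. Whether this bears on the *FIL* value was not tested.

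Most RNA of the regulators carried the A. thaliana allele. The A. arenosa share (the part of a gene's allelic RPKM that carried this allele) stayed below 20% for every listed regulator in every cross. This held for most genes too: in the Col cross 91.6% of genes had a share below the 19.9% of *AS1*. The summed share of the 7 was 5.47%, 6.52% and 10.3%, against 6.23%, 4.60% and 6.58% over all listed transcripts. The A. thaliana RPKM differed little between crosses and the A. arenosa RPKM much more. On the scale of RPKM plus 0.1, the highest cross over the lowest had a median of 1.28 for A. thaliana values of the 7 regulators and 2.89 for their A. arenosa values, where all 14660 genes had 1.45 and 2.27. The median share of the 7 was 0.411%, 5.19% and 6.80%, where the median gene had 5.45%, 3.87% and 4.92%. The C24 median was the value of *YAB3*, at a total of only 2.04 RPKM. Among the 5 regulators with at least 5 RPKM in every cross, the C24 median was that of *RPL*, 5.07%, close to the median gene. In the C24 cross 5 of the 7 lay below the median gene. A. arenosa values under 0.01 RPKM were found for 3, 0 and 1 of the 7. The same held for 1415 of 15477, 1829 of 15935 and 1683 of 15612 genes listed. The 3 in the C24 cross were *FIL*, *SPT* and *YAB3*, with totals of 6.39, 6.35 and 2.04 RPKM. The numbers below the median gene were 2 and 2 in the Ler and Col crosses.

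Among valve genes, *AS1* had the highest A. arenosa share of the set in every cross. Its A. arenosa level was 3.53, 3.23 and 6.92 RPKM, and its A. thaliana level 25.9, 25.7 and 27.8 RPKM. The share was thus 12.0%, 11.2% and 19.9% (14.4% ± 4.84, SD, n = 3 crosses), above 81.9%, 86.9% and 91.6% of the genes of each cross. *FIL* had A. arenosa levels of 9.58e-05, 1.12 and 0.951 RPKM and shares of 0.00150%, 8.09% and 6.80%. The A. arenosa allele of *FIL* was near 0 in the C24 cross, where the A. thaliana allele was also lower, at 6.39 RPKM against 12.8 and 13.03. *YAB3* had shares of 0.411%, 5.19% and 0.00220%, which rest on A. arenosa levels of at most 0.131 RPKM. Its second transcript, listed in the Ler and Col crosses, had 7.42% and 2.21%, so the near-zero share in the Col cross held for the first transcript only.

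At the margin and in the style, the related genes *ALC* and *SPT* both had their lowest share in the C24 cross, and their highest in different crosses, Col for *ALC* and Ler for *SPT*. *ALC* had A. arenosa levels of 0.0519, 0.209 and 1.94 RPKM, with A. thaliana levels of 24.6, 21.7 and 21.5 RPKM. Its share was 0.210%, 0.955% and 8.27%, so it lay above 9.27%, 16.8% and 69.2% of genes. The 3 listed transcripts of *ALC* kept this order, with shares of 8.27% to 11.0% in the Col cross and at most 0.210% in the C24 cross. *SPT* had A. arenosa levels of 0.00657, 0.353 and 0.0102 RPKM and shares of 0.103%, 4.46% and 0.240%. Genes at 0 for both alleles were not counted among those under 0.01 RPKM for A. arenosa. Whether such low values are failed estimates was not tested.

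Neither replum gene had a share below 1% in any cross. *RPL* had A. arenosa levels of 1.19, 0.347 and 1.19 RPKM and shares of 5.07%, 1.15% and 5.21%, lowest in the Ler cross, where its A. thaliana level was highest at 29.9 RPKM. *BP* had A. arenosa levels of 1.84, 3.97 and 2.71 RPKM and shares of 6.40%, 10.4% and 8.65%, highest in the Ler cross. The share of *BP* was above the median gene in 3 of 3 crosses (8.47% ± 1.99, SD, n = 3 crosses).

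**Figure D2:**
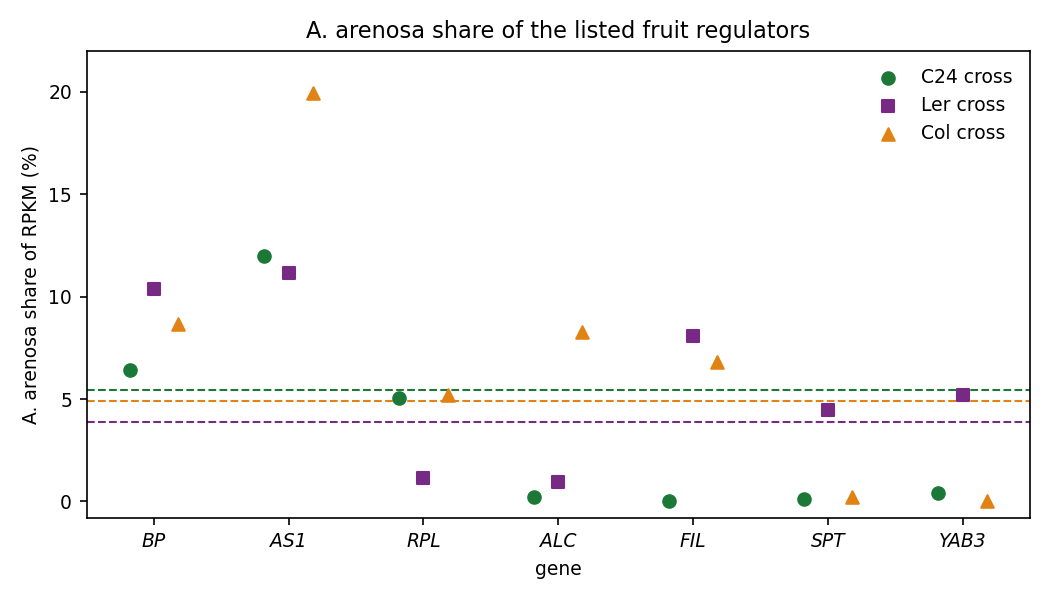
A. arenosa share of RPKM in percent for the 7 listed regulators, with 1 point per cross and a dashed line at the median gene of each cross in the same colour. *AS1* is above the median gene in every cross, up to 19.9% in the Col cross, while *ALC*, *FIL*, *SPT* and *YAB3* have values near 0 in the C24 cross.

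A regulator can depart from the allelic ratio that most genes show by more than the crosses vary. For this comparison the ratio of both alleles (log2, A. arenosa over A. thaliana, each RPKM with 0.1 added) was centred on the median gene of each cross and tested over the crosses. *AS1* lay above the typical gene in 3 of 3 crosses, with centred log2 ratios of 1.05, 1.42 and 2.08 and a mean of 1.52 ± 0.33 (SE; adjusted p = 0.0489 by limma with Benjamini-Hochberg adjustment over all genes). Of the 7 regulators, 1 was called above and 0 below by limma, where 7.97% of all 14660 genes were called above and 3.36% below. At an unadjusted p below 0.05, limma called 1 of 7, where 34.6% of all genes passed. The call for *AS1* was lost when any of the crosses was left out (adjusted p of 0.105 to 0.190 by limma), with a pseudocount of 1 (0.0939) and with the variance trend taken over total expression (0.0561).

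The other regulators did not pass. *BP* had a mean centred log2 ratio of 0.70 ± 0.35 (SE), above 0 in 3 of 3 crosses, with an adjusted p of 0.218 by limma. *RPL* had -0.64 ± 0.46 (0.378 by limma), from values of -0.23, -1.69 and -0.00130, of which only the Ler value lay far below 0. *ALC* had the lowest mean, -1.52 ± 0.83 (0.260 by limma), from values of -3.46, -1.76 and 0.67. Its mean share over the crosses, 3.14%, was above those of *SPT* (1.60%) and *YAB3* (1.87%), so the order of mean ratios is not that of shares. At lower totals the 0.1 added to each allele limits how low a ratio can fall, as for *FIL* and *SPT* in the C24 cross. *SPT* had -0.99 ± 0.55, *FIL* -0.24 ± 0.67 and *YAB3* 0.01 ± 0.41, with adjusted p between 0.264 and 0.986 by limma, and the sign of each differed between crosses. With 0.1 added to each allele, the ratio of *YAB3*, at totals of 2.04 to 2.53 RPKM, could not fall far below the median gene. Its shares of 0.411% (C24) and 0.00220% (Col) gave centred ratios of only -0.41 and -0.50. The *YAB3* mean near 0 therefore does not show a typical share. The median over the 7 regulators was -0.24, and over all genes it was -0.03. With a pseudocount of 1, limma called *YAB3* above (adjusted p = 0.00659), although its C24 and Col shares were far below those of the median gene. It also called *RPL* below (adjusted p = 0.0360 by limma), so both calls depend on the pseudocount.

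**Figure D3:**
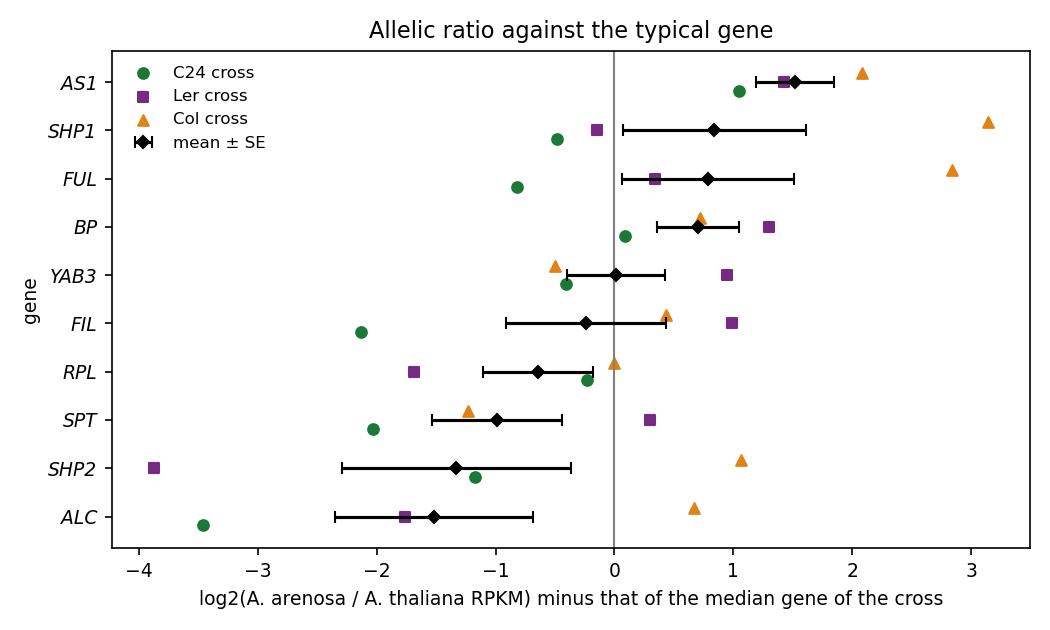
Centred log2 ratio (A. arenosa over A. thaliana) for the 7 regulators and the MADS-box genes *SHP1*, *SHP2* and *FUL*, with coloured points for the crosses and black diamonds with bars for the mean ± SE from limma. *AS1* lies to the right of 0 in all crosses (mean 1.52), whereas *ALC* spans -3.46 to 0.67.

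The genes around these regulators were looked at through a list of 43 other fruit patterning genes, of which 27 were listed in any cross and 24 in all. *SHP1* and *SHP2*, MADS-box genes that switch on *IND* and *ALC* at the margin, had A. arenosa shares of 4.26%, 3.86% and 34.3% and of 2.63%, 0.000500% and 10.8%. *FUL*, the MADS-box gene that keeps margin genes out of the valves, had 3.42%, 5.51% and 29.7% by its first transcript, but the second transcript had 1.95% in the Col cross. For all 3 of these the Col cross had the highest share by the first transcript, as it had for *ALC*, *AS1* and *RPL*, whereas *SPT*, *FIL*, *YAB3* and *BP* had theirs in the Ler cross. Limma called none of them, with adjusted p of 0.482, 0.378 and 0.483. Totals of these genes ranged from 25.9 to 39.7 RPKM, and 0 of the 3 met the 2-fold rule in any cross.

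Of the 24 genes tested, limma called 1 above the typical ratio and 0 below, with 7 at an unadjusted p below 0.05, against 7.97%, 3.36% and 34.6% of all genes. The gene called was *CEL6*, a cellulase gene of the dehiscence zone, with A. arenosa shares of 19.6%, 10.2% and 32.3% and a mean centred log2 ratio of 2.04 ± 0.42 (SE; adjusted p = 0.0469 by limma, above 0 in 3 of 3 crosses). Its call was lost when any of the crosses was left out (0.0856 to 0.185 by limma) and with a pseudocount of 1 (0.0943). The mean centred ratio of the list had a median of 0.33, with -0.03 over all genes. By the 2-fold rule for totals, *NST1* was above and *NGA1* below both others in the C24 cross, out of 24 genes, and no gene of the list was called in the Ler or Col cross.

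A majority of A. arenosa RPKM was found for 3 genes of the list in the Col cross and for 0 in the C24 and Ler crosses, where 1.34%, 0.472% and 0.402% of all genes had at least 50%. These 3 genes were named after their values were seen. *STM*, the KNOX relative of *BP* that maintains the meristem, had A. arenosa shares of 14.5%, 17.7% and 99.5%, with nearly equal totals of 13.1, 14.2 and 13.0 RPKM. *NST1* had 4.73%, 0.984% and 91.8%. *INO*, a YABBY gene of the outer integument of the ovule, had 2.93%, 11.9% and 76.9%. The KNOX and YABBY regulators *BP* and *FIL*, in contrast, had 8.65% and 6.80% in the Col cross. Repeated header lines (4) and transcripts listed at 0 for both alleles (41) were found in the Col table only, and whether these bear on its shares was not tested. The petal and stamen gene *AP3* also had its highest share there, 64.9% against 1.92% and 1.01%, while *PI* was not listed in the Col cross. The 3 pollen markers had summed shares of 71.7%, 72.6% and 85.5% from summed totals of 16.9, 29.8 and 33.4 RPKM. Of these, *VGD1* had 79.0%, 75.4% and 81.9% and *AGP23* 91.5%, 85.5% and 100%, but *ANX1* had 3.57%, 5.90% and 14.5%.

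**Figure D4:**
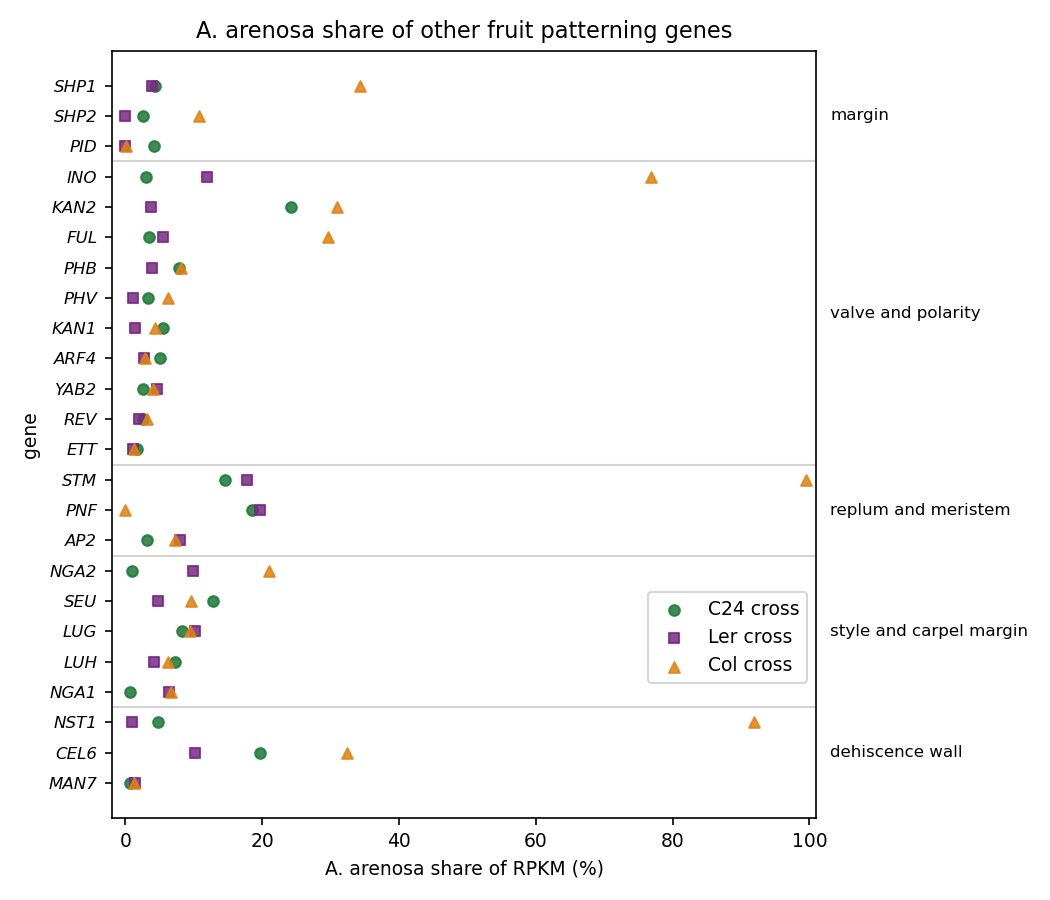
A. arenosa share of RPKM in percent for the 24 other fruit patterning genes listed in all crosses, grouped by tissue or role, with 1 point per cross. The shares of *STM*, *NST1* and *INO* in the Col cross, from 76.9% to 99.5%, stand apart, and *ETT* and *MAN7* stay near 0 in every cross.

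The last question was how the hybrids compared with the stable allotetraploid. None of the 10 regulators was in the authors' deposited tables that set a cross beside Allo733, which held 8.54%, 5.08% and 5.07% of the genes listed in the C24, Ler and Col cross. Among the genes of these tables, 31.7%, 29.5% and 31.9% were at least 2-fold above Allo733 and 31.4%, 28.1% and 29.1% at least 2-fold below. The sources used here do not give the rule that selected these genes, so absence from a table is no measure of similarity. Of the wider list, 3 genes were in a table. *YAB2*, another YABBY gene, had a total of 16.2 RPKM in both the C24 and the Col cross against 36.6 in Allo733, log2 ratios of -1.17 in each. *NST1* had 35.1 RPKM in the C24 cross against 13.3 in Allo733, a log2 ratio of 1.39. *CEL6* had 146.9 RPKM (Ler) and 208.0 RPKM (Col) against 266.6 in Allo733, log2 ratios of -0.86 and -0.36, less than 2-fold. With 1 library per group these differences have no replicate check.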

How the data were processed

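Poly(A) RNA was sequenced with an Illumina kit, per the labels' protocols. The authors deposited RPKM per transcript, in total and for a T and an A allele (read as A. thaliana and A. arenosa), and RPKM of selected transcripts beside Allo733, per the file headers. The submitters' processing notes name the build TAIR 9. The sources used here name neither the aligner nor the way alleles were assigned, and any mapping preference for A. thaliana would lower A. arenosa shares. Depth is unknown, so no counting interval is given.

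Each gene was represented by 1 transcript, chosen by the number of crosses listing it and then by its mean. The 4 repeated header lines were dropped. Log2 ratios used a pseudocount of 0.1, which understates changes of low genes. Allelic ratios were fitted with limma 3.58.1 in R 4.3.3 (intercept only, mean-variance trend, Benjamini-Hochberg over 14660 genes, threshold 0.05). The fit was also run on simulated normal data with the same spread for all genes. That run does not check p-values where spreads differ between genes. Totals between crosses and ratios to Allo733 used a 2-fold rule without a test. Names and the printed sequences come from RefSeq TAIR10.1 by gene code; no coordinates were used. Other settings tried were summed transcripts, a pseudocount of 1, no centring, a 5 RPKM filter, a 4-fold rule and each cross left out; the trend over total expression was added after seeing the data. The regulators and lists were chosen with earlier results of these data known. All 10 regulators were to be named, and of the wider list *SHP1*, *SHP2*, *FUL* and genes past a rule (at most 4 per direction); other genes named were chosen after their values were seen. Python 3.11.15, numpy 2.4.6, pandas 2.3.3 and matplotlib 3.10.9 were used.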

Additional observations from a re-analysis of the deposited data

Results flagged for a closer look

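The allelic ratio of 3 regulators lay above the median gene in one cross and below it in another, by 2 log2 units or more. For *ALC* the centred log2 ratio differed by 4.13 between the Col cross (0.67) and the C24 cross (-3.46). For *FIL* it differed by 3.12 between the Ler cross (0.98) and the C24 cross (-2.13), and for *SPT* by 2.33 between the Ler cross (0.30) and the C24 cross (-2.03). With 1 library per cross these differences were not tested. The same pattern was found for 2745 of 14660 genes (18.7%). The low end rests on A. arenosa levels of 0.0519 RPKM for *ALC*, 9.58e-05 for *FIL* and 0.00657 for *SPT*, below the pseudocount of 0.1.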

How the results depend on the processing

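Limma called 1 of 7 regulators and 1 of 24 genes of the wider list. With a pseudocount of 1 the numbers were 2 and 8, without centring 7 and 21 (all below, since this asks about equal alleles), with a cross left out 0 to 0 and 0 to 0, and with the trend over total expression 0 and 3. Leaving out a cross leaves 2 libraries for the fit. Without centring the log2 ratio reversed to -2.60 for *AS1*, -3.41 for *BP*, -4.10 for *YAB3*, -3.28 for *SHP1*, -3.33 for *FUL* and -2.07 for *CEL6*. The 5 RPKM filter and summed transcripts kept both counts. By totals 0 regulators were called, and 1 (*FIL* in the C24 cross) without centring; 0 were called with a pseudocount of 1, a 4-fold rule, summed transcripts and the filter. The mean over crosses of the median share was 4.13% ± 3.32 (SD, n = 3 crosses). It was 7.14% for the 5 regulators with at least 5 RPKM in every cross, 4.49% with summed transcripts, and 2.80% to 5.99% with a cross left out. The count of regulators past 2-fold against Allo733 was 0 under every alternative run, since none was in those tables. No paired analysis was possible because each group held 1 library with no replicate numbers. Unknown depth limits all values near 0.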

Other observations

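Genes linked to the regulators varied in other ways, and the 3 named here were chosen after their values were seen. *PNF*, the close relative of *RPL*, had totals of 4.82, 3.76 and 2.13 RPKM (C24, Ler, Col) and A. arenosa shares of 18.5%, 19.7% and 0.00320%. The share was near 0 in the Col cross alone, where the total was close to the lowest listed total of 2.00 RPKM. *PID*, a protein kinase gene of auxin transport on which *IND* is known to act, had totals of 9.48, 7.29 and 17.1 RPKM and shares of 4.19%, 0.000203% and 0.0564%. *KAN2*, a gene of abaxial identity, had shares of 24.2%, 3.67% and 31.0%, lowest in the Ler cross.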
